A study of Mus musculus with 6 samples.

Results

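Hnrnpk, the gene removed from chondrocytes in this study, and Pcbp1, Pcbp2, Pcbp3 and Pcbp4, its closest relatives among the poly(C)-binding proteins, were followed through RNA-seq of the mouse growth plate. These 5 genes, chosen by their symbols, were all present among the 15803 genes of the deposited table. The RNA was taken from the growth plate cartilage of E18.5 embryos, which are close to birth, and each genotype had 3 libraries. In the conditional knockout (CKO), Col2a1-Cre;Hnrnpk fl/fl, Cre recombinase driven by the Col2a1 promoter of chondrocytes cuts out exons 4 to 7 of Hnrnpk, which lie between loxP sites. The controls (WT) were Hnrnpk fl/fl embryos without the Cre transgene, so that the loxP sites were shared by both groups. Cells of the dissected cartilage that never made Col2a1 keep an intact Hnrnpk in the CKO. The sources used here do not say how many embryos went into a library, and p-values therefore measure the spread between these libraries, which may in part be technical.

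Hnrnpk and the Pcbp proteins each carry 3 KH domains (K homology, named after Hnrnpk), which hold single-stranded RNA or DNA rich in cytosine. Hnrnpk shuttles between nucleus and cytoplasm and takes part in transcription, splicing, mRNA stability and translation. Pcbp1 and Pcbp2 stabilize mRNAs through C-rich elements, and both also act as iron chaperones that load ferritin and iron-dependent hydroxylases. Pcbp4 is a known target of p53, and Pcbp3 is the least studied of the family. In the growth plate, chondrocytes that divide, enlarge and are replaced by bone drive the lengthening of the skeleton.

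The part of a KH domain that grips the nucleic acid backbone is a loop with the pattern glycine, any residue, any residue, glycine. A search of the coding sequences for a codon of isoleucine, valine or leucine, an isoleucine codon and then this pattern, in frame, found 3 loops in each of the 5 genes. They are shown because loop 1 of Hnrnpk lies in the stretch that Cre removes. Among 21816 principal coding sequences of the annotation (GENCODE M21, GRCm38), 2.46% held at least 1 match and 0.0825% held at least 3. Loops are numbered from the start of the protein. Each line gives 18 bases, 5′ to 3′ on the coding strand, with the codons from glycine to glycine in capitals.
Hnrnpk, loop 1: gtgattGGAAAAGGAGGC
Hnrnpk, loop 2: ataattGGTGTTAAAGGT
Hnrnpk, loop 3: attattGGCAAAGGTGGT
Pcbp1, loop 1: atcatcGGGAAGAAAGGG
Pcbp1, loop 2: ctgatcGGCAAGGGCGGC
Pcbp1, loop 3: ataatcGGGCGCCAAGGC
Pcbp2, loop 1: atcatcGGAAAGAAAGGA
Pcbp2, loop 2: cttattGGAAAAGGTGGT
Pcbp2, loop 3: ataatcGGGCGTCAAGGC
Pcbp3, loop 1: atcatcGGGAAGAAAGGA
Pcbp3, loop 2: ctgatcGGCAAAGGTGGC
Pcbp3, loop 3: ataattGGACGCCAAGGC
Pcbp4, loop 1: atcattGGGAAGAAGGGA
Pcbp4, loop 2: ctgattGGGAAGGCAGGC
Pcbp4, loop 3: gtgatcGGACGCCAGGGC

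The loops of Pcbp2, Pcbp3 and Pcbp4 were closer to those of Pcbp1 than the loops of Hnrnpk were. Of the 18 bases of each loop, Pcbp2 matched Pcbp1 at 16, 12 and 17, in the order of the loops. Pcbp3 matched it at 17, 16 and 16 and Pcbp4 at 15, 14 and 14, whereas Hnrnpk matched it at 10, 7 and 8. In the whole coding sequences Hnrnpk was again the most distant of the 5 genes. Aligned end to end, Pcbp1 and Pcbp2 were identical at 82.0% of the aligned bases, the highest of the 10 pairs, and the other pairs among Pcbp1 to Pcbp4 ranged from 64.7% to 73.3%. Hnrnpk shared 60.5% with Pcbp1, 61.3% with Pcbp2, 59.3% with Pcbp3 and 55.2% with Pcbp4. Its coding sequence was also the longest, with 463 codons against 349 (Pcbp2) to 403 (Pcbp4).

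Hnrnpk (ENSMUSG00000021546) codes for protein from the minus strand of chr13:58391142-58403343 (GRCm38) and has 34 annotated transcripts. Its principal coding transcript has 16 exons and 2676 bases. The study's methods do not name the transcript behind the exon numbers 4 to 7. In the principal transcript these exons run from 58396188 to 58399212 and hold 246 bases, all of them coding and a multiple of 3. They are printed here because they are the sequence that the CKO is made to lose, with loop 1 in capitals.
Exon 4, chr13:58399156-58399212, minus strand: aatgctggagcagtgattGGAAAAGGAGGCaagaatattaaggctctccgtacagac
Exon 5, chr13:58397753-58397796, minus strand: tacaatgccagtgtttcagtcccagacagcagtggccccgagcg
Exon 6, chr13:58396827-58396899, minus strand: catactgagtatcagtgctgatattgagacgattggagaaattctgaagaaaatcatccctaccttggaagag
Exon 7, chr13:58396188-58396259, minus strand: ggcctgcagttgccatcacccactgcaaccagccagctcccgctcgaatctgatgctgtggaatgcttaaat

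Loop 1 starts at codon 57 in exon 4, and loops 2 and 3 start at codon 159 in exon 8 and codon 402 in exon 15, outside the loxP-flanked stretch. By exons 4 to 7 of the 6 transcripts with a consensus coding sequence, the stretch held between 246 and 288 bases, and its coding part was a multiple of 3 in 5 of them. The study's own qPCR primers for Hnrnpk, shown because they read the deleted stretch itself, match the principal transcript there. The forward primer spans exons 4 and 5 and the reverse primer spans exons 6 and 7, and the product of 130 bases lies wholly inside the loxP-flanked exons.
Forward primer: CCGTACAGACTACAATGCCAG
Reverse primer: GCCCTCTTCCAAGGTAGGGAT

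**Figure D1:**
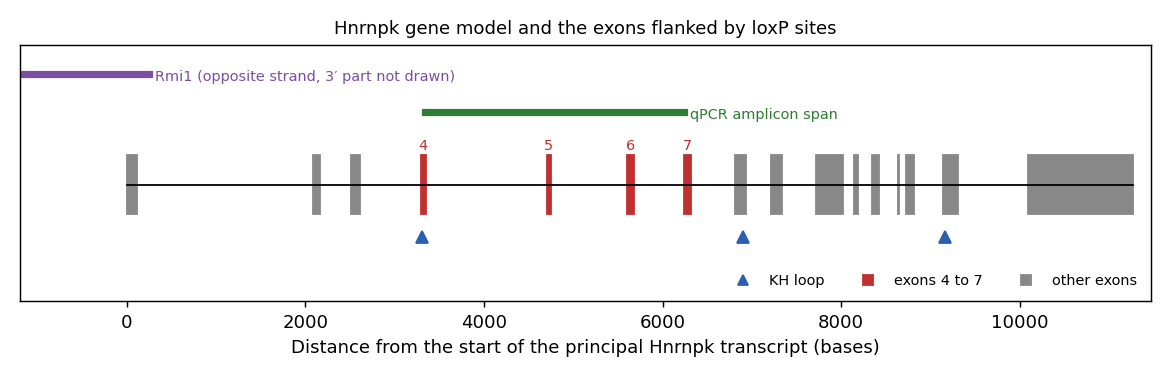
The 16 exons of the principal Hnrnpk transcript, drawn to scale by distance in bases from its start, with loxP-flanked exons 4 to 7 in red, the 3 KH loops as triangles and the span of the qPCR product as a green bar. Loop 1 lies in exon 4, and the overlapping end of Rmi1 on the other strand is drawn in purple.

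The libraries held 1183743 to 1379674 reads in WT and 1153871 to 1454094 in CKO, and 1 read was worth 0.688 to 0.867 CPM (reads on a gene, scaled to the same total in every library). Across genes, log2(CPM + 1) correlated less between CKO 2 and the other CKO libraries (Pearson's r = 0.921 and 0.924) than between CKO 1 and CKO 3 (r = 0.965). In WT, WT 3 stood apart in the same way (r = 0.937 and 0.938, against 0.965 for WT 1 with WT 2). Values without these libraries are given where they change a result.

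RNA-seq measured Hnrnpk by its whole gene and not by these exons. If every transcript lost exons 4 to 7 and was otherwise unchanged, 9.19% of the principal transcript would be missing, which comes to a log2 fold change of -0.14 for reads spread evenly along it. Over the 6 transcripts the value ranged from -0.17 to -0.13. The targeted gene is thus a weak check of the genotype labels in this table, and reads on exons 4 to 7 alone were not analysed here.

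The level of Hnrnpk over its whole gene did not differ between the genotypes beyond the spread of the libraries. Levels are given per library in the order of replicates 1, 2 and 3. Hnrnpk had WT levels of 842, 955 and 944 CPM. Its CKO levels were 759, 949.9 and 780.0 CPM. CKO 1 and CKO 3 lay below every WT library, while CKO 2 lay between the WT libraries, so that the groups overlapped. The WT mean was 914 ± 62.2 CPM (SD, n = 3), and the CKO mean was 830 ± 105 CPM (SD, n = 3). With limma on log2(CPM + 1) over 12155 genes, the log2 fold change was -0.14 (standard error 0.15, 95% interval -0.47 to 0.18, adjusted p = 0.622). As a fold the interval ran from 0.722 to 1.13, which holds no change as well as the value for loss of the 4 exons. Without CKO 2 the log2 fold change was -0.25 (limma's adjusted p = 0.226). The estimate rested on 900 to 1316 reads per library. The coefficient of variation among replicates was 6.81% in WT and 12.6% in CKO, against 2.91% and 3.01% from counting alone. Hnrnpk at the level of the whole gene thus did not separate the genotypes, and the directions given here are those of the WT and CKO labels.

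The paralogs were low, and none of them passed the test between genotypes. Of the 5 genes, 0 passed limma's adjusted threshold of 0.05, in a comparison in which 5.78% of the genes tested were called (703 of 12155, with 3.18% higher and 2.6% lower in CKO). At an unadjusted p under 0.05 the count was also 0, where 21.3% of all genes passed, and the study's own criterion, which adds to this p an absolute log2 fold change over 1, was met by 0 of them and by 10.4% of all genes. On the recovered reads, DESeq2 called 0 of 5 and edgeR's quasi-likelihood test called 0 of the 3 genes that its filter on low counts kept (Hnrnpk, Pcbp3 and Pcbp4). The groups overlapped for each of the 5 genes, against 27.7% of all genes without overlap. The middle estimate across all genes was a log2 fold change of 0.013, and the 5th and 95th percentiles were -1.11 and 1.13.

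Pcbp1 (ENSMUSG00000051695, chr6:86524492-86526321, minus strand) is a gene of 1 exon, a known retrotransposed copy of Pcbp2. It had WT levels of 4.35, 12.8 and 5.91 CPM and CKO levels of 4.13, 5.77 and 5.20 CPM. WT 2 stood above the other libraries, which lay close together whatever their label. The log2 fold change was -0.41 (standard error 0.43, 95% interval -1.37 to 0.54, limma's adjusted p = 0.631), and it rested on 50 reads altogether. Without WT 2 it was close to 0, at -0.021. With 6 to 17 reads per library the fold interval was wide, from 0.387 to 1.46.

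Pcbp2 (ENSMUSG00000056851, chr15:102470539-102500061, plus strand) is the partner of Pcbp1 in mRNA stabilization and iron delivery. The WT levels were 4.35, 6.0 and 13.5 CPM and the CKO levels 4.13, 5.05 and 3.47 CPM. Here WT 3 stood apart, and the other 5 libraries lay between 3.47 and 6.0 CPM. The log2 fold change of -0.66 was the largest among the 5 genes but did not pass the test (standard error 0.45, 95% interval -1.65 to 0.33, limma's adjusted p = 0.436). It came to -0.24 without WT 3. The gene had 4 to 16 reads per library, and counts this low sit near 3 reads (2.06 to 2.60 CPM). That level was set as a limit of detection but did not decide which genes were tested. The limma interval reflects the spread between libraries, of which counting error is a part.

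Pcbp3 (ENSMUSG00000001120, chr10:76761857-76961887, minus strand) had WT levels of 13.8, 12 and 9.29 CPM. Its CKO levels were 8.25, 13 and 11.3 CPM. The libraries of both labels were mixed throughout this range. The estimate was a log2 fold change of -0.11 (standard error 0.32, 95% interval -0.81 to 0.60, limma's adjusted p = 0.886). The sign turned when WT 1 (0.012) or CKO 1 (0.062) was left out.

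Pcbp4 (ENSMUSG00000023495, chr9:106453291-106464012, plus strand), the p53 target, was the only one of the 5 genes with a positive estimate. The WT levels were 25.4, 29.3 and 25.3 CPM, and the CKO levels were 27.5, 26 and 37.3 CPM. CKO 3 was the highest library, and CKO 1 and CKO 2 lay within the WT range. The log2 fold change was 0.16 (standard error 0.24, 95% interval -0.36 to 0.69, limma's adjusted p = 0.744), and without CKO 3 it was 0.0071. The fold interval of 0.777 to 1.61 leaves out a doubling of Pcbp4 in these libraries.

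**Figure D2:**
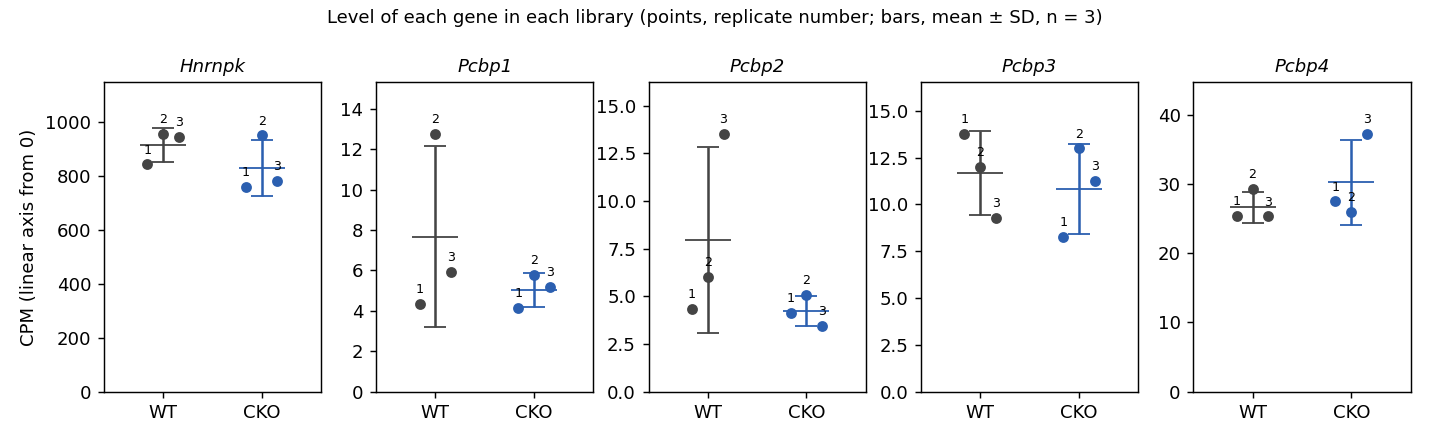
Level of Hnrnpk and of Pcbp1 to Pcbp4 in each library, in CPM on linear axes that start at 0 and differ between panels (points with replicate numbers, with bars for the mean ± SD, n = 3). In each panel the WT and CKO libraries overlap, and the wide WT bars of Pcbp1 and Pcbp2 come from WT 2 and WT 3.

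The sum of the 4 Pcbp genes came to WT values of 47.8, 60 and 54.1 CPM and to CKO values of 44.0, 49.8 and 57.2 CPM. These ranges overlapped as well. No library labelled CKO lay above the highest WT library in this sum, and no rise of the paralogs as a group was seen at this depth. The sum itself was not tested. Pcbp4 alone made up 46.9% (WT 3) to 65.2% (CKO 3) of it.

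**Figure D3:**
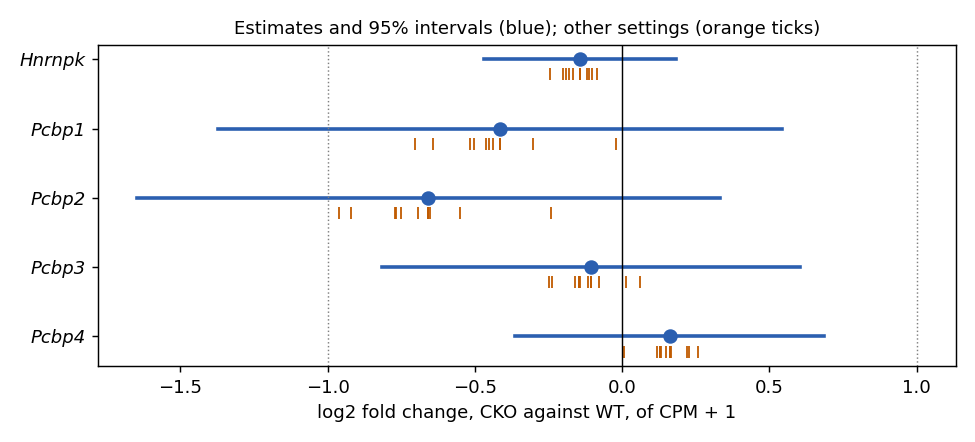
Log2 fold change of CPM + 1 in CKO against WT for each of the 5 genes, with 95% intervals from limma in blue, the value under each alternative setting as orange ticks, and dotted lines at 1 and -1. Every interval crosses 0, from the narrowest for Hnrnpk (-0.47 to 0.18) to the widest for Pcbp2 (-1.65 to 0.33).

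Between genes, levels were compared per kilobase (kb) of annotated exon. By the deposited values Hnrnpk was far above its paralogs, with a mean of 134.8 CPM per kb over the 6 libraries (range 117 to 148). Pcbp4 followed at 6.67 CPM per kb (5.94 to 8.73), 20.2-fold below Hnrnpk. Pcbp3 came next at 3.84 CPM per kb (2.81 to 4.70) and was 35.1-fold below Hnrnpk. These 3 genes kept their order in every library, because their ranges did not overlap. Pcbp1 at 3.47 CPM per kb (2.25 to 6.97) could not be told from Pcbp3. In WT 2 it stood just above Pcbp4 (6.97 against 6.86 CPM per kb), so that the ranges of these genes overlapped too, and Pcbp2 at 1.17 CPM per kb (0.666 to 2.60) overlapped with Pcbp1 in turn. Among Hnrnpk and 25 other hnRNP genes, Hnrnpk held the second place per kb, behind Hnrnpf. Among Hnrnpk and 34 other genes with KH domains it was the second too, behind the ribosomal protein gene Rps3, and among 15212 genes with an annotated length it held place 561.

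Which length was used changed the lower end of this order. With the length of the principal coding transcript in place of all annotated exons, the levels were 326 CPM per kb for Hnrnpk, 14.0 for Pcbp4, 5.60 for Pcbp3, 4.06 for Pcbp2 and 3.47 for Pcbp1, so that Pcbp1 and Pcbp2 changed places with ranges that still overlapped. Hnrnpk was then 23.3-fold above Pcbp4 and 93.8-fold above Pcbp1.

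**Figure D4:**
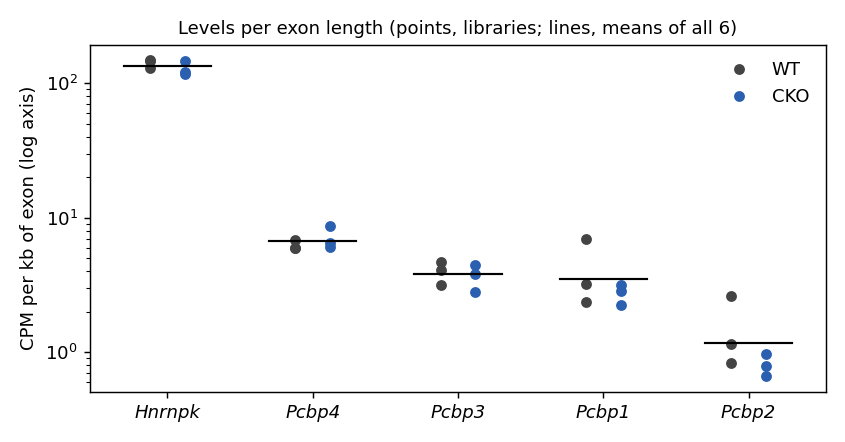
Levels of the 5 genes in CPM per kb of annotated exon on a log axis, with a point for each library and a line for the mean of all 6. Hnrnpk lies at 117 to 148 and Pcbp4 at 5.94 to 8.73, while Pcbp3, Pcbp1 and Pcbp2 overlap with their neighbours.

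Shared sequence touches these levels unequally. Of all stretches of 100 bases in the principal transcript, 28.6% for Hnrnpk also occurred in transcripts of other genes, chiefly the pseudogenes Gm7964 and Gm4130, which were not analysed here. For Pcbp2 the share was 23.5%, mostly from Map3k12 on the other strand, and for Pcbp1, Pcbp3 and Pcbp4 it was 0. Both qPCR primers for Hnrnpk also match Gm7964. In the gene models, 36.2% of the exon bases of Pcbp2 overlap with other genes. How reads in shared stretches were counted is not given in the sources used here, and the levels of Hnrnpk and Pcbp2 are uncertain to that extent. The table also holds 586 entries without a gene name or position (1.93% to 2.66% of the reads), and their part in the low levels of Pcbp1 and Pcbp2 was not tested. Low values were not limited to the Pcbp genes. Of the other hnRNP genes, Hnrnpa1 averaged 3.68 CPM and Hnrnpa0 4.67 CPM in WT, while Hnrnpf averaged 453 CPM. Whether the deposited values undercount some of these genes was not tested.

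The genes that lie against or across Hnrnpk and Pcbp2 did not pass the test either. Rmi1, which encodes a partner of the Bloom helicase, starts opposite Hnrnpk and shares 330 exon bases with it. Its WT levels were 12.3, 15.0 and 15.2 CPM, against 11, 13.7 and 7.80 CPM for CKO (log2 fold change -0.38, standard error 0.31, limma's adjusted p = 0.524). On the other side of Hnrnpk, 2210016F16Rik varied widely in both genotypes, from 17.3 to 38.9 CPM in WT and from 3.44 to 41.1 CPM in CKO (log2 fold change -0.98, standard error 0.67, limma's adjusted p = 0.445). Its highest value was in CKO 2, and without that library the log2 fold change was -1.85 and passed the threshold (limma's adjusted p = 0.0268). Map3k12, a kinase gene that shares 1573 exon bases with Pcbp2 on the other strand, had 3.0 to 11.8 CPM in WT and 5.20 to 7.94 CPM in CKO (log2 fold change 0.11, limma's adjusted p = 0.923). WT 3 was the highest WT library for Map3k12 as for Pcbp2.

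Across the 6 libraries, the genes whose log2(CPM + 1) ran most like that of Hnrnpk were Bid, a pro-apoptotic BCL2 family gene (Pearson's r = 0.970), Ptpa, an activator of protein phosphatase 2A (r = 0.963), and Mdm4, an inhibitor of p53 (r = 0.960). The search covered the 5021 genes averaging 20 CPM or more, 45 of which exceeded r = 0.9. Like Hnrnpk, Ptpa was low in CKO 1 (121 CPM) and CKO 3 (119 CPM) and at 170 CPM in CKO 2, within the WT range of 155 to 174 CPM. Nearest to Pcbp4 were Becn1 of the autophagy pathway (r = 0.985), Crbn, a substrate receptor of an E3 ubiquitin ligase (r = 0.983), and Cdpf1 (r = 0.943), with 14 genes above r = 0.9. Crbn shared with Pcbp4 its high value in CKO 3, at 62.4 CPM against 31.3 to 44.3 CPM in the other libraries. With 6 points that share library depth and composition, these coefficients only describe the pattern, and none of the 6 genes differed between genotypes past the threshold (limma's adjusted p from 0.379 to 0.820). Pcbp1, Pcbp2 and Pcbp3 were below 20 CPM and were not used in this way.

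The dissected tissue of both genotypes carried the defining markers of chondrocytes, and their summed level was lower in CKO. Col2a1, Acan and Sox9 were detected in every library. The summed level of 7 chondrocyte markers was 14059 to 19106 CPM in WT and 3768 to 4877 CPM in CKO, without overlap. Much of this was Matn1, at 6283 to 7830 CPM in WT and 356 to 612 CPM in CKO. Col2a1, Acan, Col9a1 and Snorc were also lower in every CKO library, whereas Sox9 and Hapln1 overlapped between the genotypes. The 4 macrophage markers Cd68, Csf1r, Adgre1 and Ptprc summed to 9.01 to 20.3 CPM in WT and 63.5 to 82.3 CPM in CKO, also without overlap, and most of this was Cd68 (6.75 to 11.8 CPM in WT and 46.9 to 76.3 CPM in CKO). Csf1r, Adgre1 and Ptprc each overlapped between the genotypes, and Ptprc, which marks all white blood cells, was at 0 in every WT library. The summed muscle, neural, erythroid, endothelial, osteoblast and epithelial markers each overlapped between the genotypes. Among the osteoblast markers, Sp7 was low but higher in every CKO library (4.13 to 4.33 CPM, against 2.17 to 3.38 CPM in WT). With 1 read worth 0.688 to 0.867 CPM, this is a difference of a few reads. It lies near the limit of 3 reads (2.06 to 2.60 CPM). Col1a1 was lower in every CKO library, and Ibsp and Bglap overlapped. In bulk RNA, fewer cells of a type and less RNA per cell cannot be told apart. Whether these shifts had a part in any level given here was not tested.

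Of 34 other KH-domain genes, 30 were tested, 13 with a higher and 17 with a lower estimate in CKO. Their median was -0.012 on the log2 scale, against 0.013 for all genes tested. The count past limma's adjusted threshold was 0, where 5.78% of all genes passed, and 6 of the 30 had an unadjusted p under 0.05, a share near the 21.3% of all genes. DESeq2 called 0, and edgeR called 1, Ascc1 (log2 fold change -0.83 by edgeR, adjusted p = 0.0468), which encodes a subunit of a transcriptional coactivator complex. With limma, Ascc1 had 69.2 CPM in WT and 40.3 CPM in CKO and missed the threshold (adjusted p = 0.0703). The list runs from RNA-binding proteins of translation, such as Fmr1 and Igf2bp2, to exosome subunits such as Exosc2, and its estimates ranged from -0.80 to 1.46.

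Among 25 other hnRNP genes, the nuclear proteins that package pre-mRNA, 3 fell and 0 rose past the adjusted threshold. Of all genes tested, 2.6% were called lower. All 25 were tested, 12 with higher and 13 with lower estimates (median -0.020). Hnrnph3, a splicing regulator that binds G-rich RNA, had WT levels of 76.8, 73.5 and 62.5 CPM and CKO levels of 35.8, 20.9 and 29.5 CPM. Its log2 fold change was -1.30, with a standard error of 0.24 (limma's adjusted p = 0.0126). Hnrnpr, known for mRNA transport in neurons, went from 147 ± 14.7 CPM (SD, n = 3) to 84.6 ± 9.05 CPM (log2 fold change -0.79, limma's adjusted p = 0.0259). Rbmx, an X-linked splicing factor, went from 74.4 ± 10.6 CPM to 39.3 ± 7.02 CPM (log2 fold change -0.91, limma's adjusted p = 0.0371). For these 3 genes each CKO library lay below each WT library. The calls rested on few libraries. Over the 12 alternatives, the call was lost in 6 for Hnrnpr, in 5 for Rbmx and in 3 for Hnrnph3. Without WT 3, Hnrnpr missed the threshold (limma's adjusted p = 0.0602). Without WT 1, without WT 2 or without CKO 3 the list held 0 called genes, and without CKO 2 it held 7, all lower, with a median of -0.49. The count over all genes moved in the same way. It was 218 without WT 1, 212 without WT 2, 231 without CKO 3 and 1298 without CKO 2, against 703 with every library.

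The genes around the iron chaperone function of Pcbp1 and Pcbp2 were mostly higher in CKO. Of 11 genes, 9 had higher and 2 lower estimates, and 4 rose past the adjusted threshold, which 3.18% of all genes did. This list, like the other gene lists, was compiled by hand with earlier results of these data known. Its share of calls therefore only describes the genes listed. The median of the list was 0.80 on the log2 scale, and it was 0.50 without CKO 1 as well as without CKO 3. Ferritin, the iron store that the chaperones load, rose in both of its chains. Ftl1, the light chain, had WT levels of 1012, 1033 and 705 CPM and CKO levels of 3498, 2144 and 3357 CPM (log2 fold change 1.70, standard error 0.22, limma's adjusted p = 0.00279). Fth1, the heavy chain with the ferroxidase site, went from 638 ± 95 CPM (SD, n = 3) to 1404 ± 123 CPM (log2 fold change 1.15, standard error 0.16, limma's adjusted p = 0.00365). Ftl1 shares 78.6% of its 100-base stretches with other annotated copies, so that its level is uncertain, whereas for Fth1 the share was 0.573%.

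Hmox1, the heme oxygenase that frees iron from heme, rose from 65.0 to 113 CPM in WT to 376 to 491 CPM in CKO, a log2 difference of 2.23 (limma's adjusted p = 6.54e-04). Bola2, a partner of the glutaredoxin Glrx3 in handing on iron and iron-sulfur clusters, went from 29.6 ± 2.73 CPM (SD, n = 3) to 52.2 ± 1.72 CPM (log2 fold change 0.80, standard error 0.20, limma's adjusted p = 0.0435). This call was lost in 8 of 12 alternatives, while those of Hmox1, Ftl1 and Fth1 held in each of the 12. Neither Pcbp1 nor Pcbp2 changed beside these genes past the test. Heme oxygenase and ferritin are also abundant in macrophages, of whose 4 markers Cd68 was higher in every CKO library and Csf1r, Adgre1 and Ptprc overlapped. Their part in these differences was not tested.

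The last list held 13 mRNAs described as bound by Hnrnpk or the Pcbp proteins, in part through C-rich elements. Of these, 10 were tested, 6 with higher and 4 with lower estimates (median 0.23). Without CKO 2 the median was 0.0019. The higher estimates include the globin genes Hba-a1 and Hba-a2, which were also counted above as erythroid markers. Hba-a2 had 39 reads in CKO 2 and 0 to 3 in each other library. Past the adjusted threshold, 1 rose and 1 fell, where 3.18% of all genes were called higher and 2.6% lower. Cdkn1a, the cell cycle inhibitor p21 and a p53 target like Pcbp4, had WT levels of 475, 455 and 251 CPM and CKO levels of 1918, 1452 and 1635 CPM (log2 fold change 2.13, standard error 0.24, limma's adjusted p = 0.00130). Col1a2, a chain of type I collagen whose mRNA Pcbp proteins are known to stabilize, had WT levels of 470, 586 and 759 CPM and CKO levels of 327, 212 and 309 CPM (log2 fold change -1.09, standard error 0.22, limma's adjusted p = 0.0191). Without WT 2 or without CKO 3, Col1a2 no longer passed the threshold. Its partner chain Col1a1 also had lower values in each CKO library, without passing the test (log2 fold change -0.57, limma's adjusted p = 0.179). The summed osteoblast markers, of which Col1a1 is part, were at 407 to 659 CPM in WT and 331 to 1109 CPM in CKO and overlapped. Hif1a (log2 fold change -0.56, limma's adjusted p = 0.253) and Pfkfb3 (-0.68, limma's adjusted p = 0.290) also had lower values in each CKO library, without passing the test. Pfkfb3 rested on 7 to 14 reads per library. Eif4e had higher values in each CKO library, also short of the threshold (log2 fold change 0.35, limma's adjusted p = 0.253). Ucp2, Myc, Hba-a1 and Hba-a2 overlapped between the genotypes. Th, Alox15 and Epo were not tested.

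**Figure D5:**
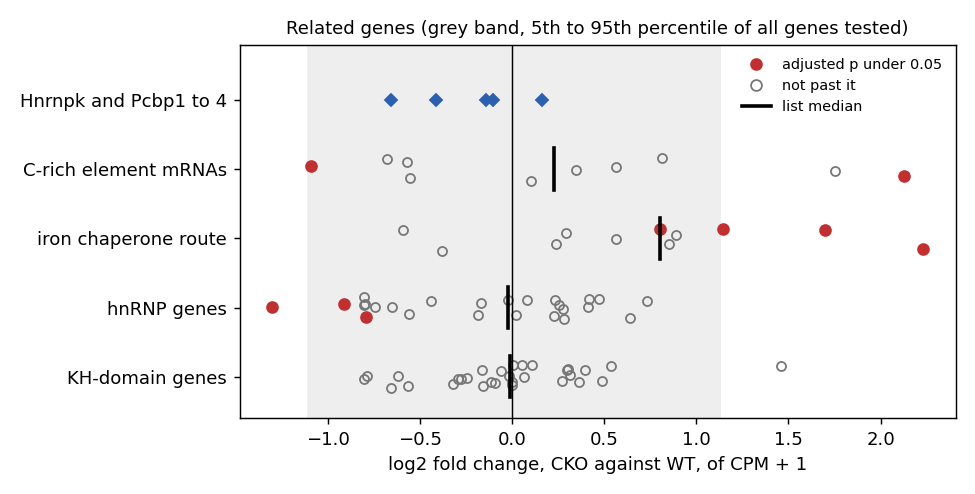
Log2 fold change of CPM + 1 in CKO against WT for the genes of 4 related lists (circles, filled red where limma's adjusted p is under 0.05) and for Hnrnpk and Pcbp1 to Pcbp4 (blue diamonds), with list medians as black bars and the range from the 5th to the 95th percentile of all genes tested as a grey band. The iron list is centred at 0.80 and the KH-domain and hnRNP lists near 0, and the 5 blue diamonds lie inside the grey band.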

How the data were processed

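Poly(A) RNA of growth plate cartilage was sequenced by the study with a stranded kit, 3 libraries per genotype. The authors deposited CPM per gene and library. The submitters' processing notes name cutadapt 2.5, HISAT2 and featureCounts 1.6.3, and the genome build and annotation behind the table are not given in the sources used here. Each library matched a column of the table by genotype and replicate number. Of the deposited CPM values 100% were whole multiples of 1 read (tolerance 0.01 reads), which returned 1183743 to 1379674 reads in WT and 1153871 to 1454094 in CKO, with 1 read worth 0.688 to 0.867 CPM. At 4 to 43 reads per library, counting error alone gave the Pcbp genes a coefficient of variation of 15.9% to 42.0%.

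Genotype was tested with limma 3.58.1 (R 4.3.3) on log2(CPM + 1) for the 12155 genes averaging 1 CPM or more, by moderated statistics with an intensity trend and Benjamini-Hochberg correction. A fold change on this scale understates that of low genes. Alternatives were a pseudocount of 0.1, no filter, TMM scaling, a replicate block, each library left out, and edgeR 4.0.16 and DESeq2 1.42.0 on the recovered reads; the other length per kb was added after the data were seen. On simulated counts, limma recovered 74.4% of 199 changed genes tested among 12117, with 4 false calls. Every changed gene there had the same fold change, larger than the estimate of any of the 5 genes. All genes had the same relative spread and no library stood apart, so the rate does not measure the power for smaller changes here. Gene models, exons and transcript sequences came from GENCODE M21 (GRCm38) by Ensembl identifier. Named genes were the 5 members, their overlapping or neighbouring genes, the 3 closest patterns for members with at least 20 CPM, and list genes past the adjusted threshold (at most 4 by p in each direction). Ascc1, Col1a1, Hif1a, Pfkfb3, Eif4e, Ucp2, Myc, Hba-a1, Hba-a2 and the examples given without values were named after their values were seen. The members and lists were chosen with earlier results of these data known.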

Additional observations from a re-analysis of the deposited data

How the results depend on the processing

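In each of the 12 alternatives Hnrnpk, Pcbp3 and Pcbp4 stayed short of the adjusted threshold, as Pcbp1 and Pcbp2 did in the 11 that could test them (edgeR's filter left them out). With each library left out, the log2 fold change ranged from -0.25 to -0.084 for Hnrnpk, from -0.70 to -0.021 for Pcbp1, from -0.96 to -0.24 for Pcbp2, from -0.25 to 0.062 for Pcbp3 and from 0.0071 to 0.26 for Pcbp4. The reversals were Pcbp3 without WT 1 (0.012) and without CKO 1 (0.062), Map3k12 by DESeq2 (-0.047), without WT 2 (-0.30) and without CKO 2 (-0.011; range 0.54 to -0.30 with each library left out), and Cdpf1 without CKO 3 (-0.033). Their cause was not tested. The count of all genes past the adjusted threshold depended on single libraries: 218 without WT 1, 212 without WT 2, 258 without CKO 1, 231 without CKO 3 and 1298 without CKO 2, against 703 with all 6. By the criterion of the study's methods, leaving out a library gave 1160 to 1484 genes and edgeR, which tested fewer genes (7704), gave 822. Deviations of libraries with the same number correlated at 0.038, -0.13 and -0.10, and those with different numbers at -0.12 to 0.16. With so few libraries in each group, these values cannot decide whether the numbers mark pairs. With the replicate block 385 genes passed, and none of the 5 genes described did. List medians ranged, with each library left out, from -0.084 to 0.0063 (KH-domain), -0.49 to 0.13 (hnRNP), 0.50 to 0.79 (iron) and 0.0019 to 0.36 (C-rich). Called genes numbered 0 to 7 in the hnRNP list and 3 to 6 in the iron list over the alternatives. With the principal transcript as length, Hnrnpk exceeded Pcbp3 58.2-fold and Pcbp1 93.8-fold, against 35.1-fold and 38.8-fold. At 4 to 19 reads per library, changes of Pcbp1, Pcbp2 and Pcbp3 smaller than their intervals could not be detected.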
